A study of Mus musculus with 6 samples.

Results

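Astrocytes of the hippocampal CA1 field were taken as the barcodes with a detected set of astrocyte genes, in a Drop-seq data set of 6 mice. Drop-seq captures single cells in droplets with barcoded beads and counts each messenger RNA molecule once by a unique molecular identifier (UMI). A barcode was a member if it had more than 500 and at most 8000 detected genes, at most 40% of its UMIs in genes encoded by the mitochondrial genome, a UMI in at least 3 of the 8 genes Gja1, Aqp4, Slc1a3, Slc4a4, Gjb6, Pla2g7, Aldoc and Id4, and no more than 1 detected gene among Mog, Opalin, Ermn, Cldn5, Flt1, Cx3cr1, C1qa, Gad1, Gad2 and Slc17a7, which mark oligodendrocytes, endothelial cells, microglia, interneurons and glutamatergic neurons. This rule found 256 members among the 1632 barcodes that passed the limits on genes and mitochondrial UMIs, and among 6000 deposited barcodes in all. The remaining 1376 passing barcodes are called other barcodes. The members were chosen by their measured UMIs in these 18 genes and by detected genes and mitochondrial share, so levels in them, of these genes and of all others, against other barcodes are given as description and without a test.

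All 6 animals were male C57Bl6 mice at postnatal day 28. The EPO group received 1 intraperitoneal (i.p.) injection of recombinant human erythropoietin (rhEPO) at 5000 IU/kg, the placebo group a placebo injection, and CA1 was dissociated 6 h later. Each group held 3 mice, numbered 1, 3 and 5 for placebo and 2, 4 and 6 for EPO. A D number, 1 for mice 1, 2 and 3 and 2 for mice 4, 5 and 6, is part of the sample names and its meaning is not given. The study asked which cells of CA1 respond at once to rhEPO, and the comparison here puts that question to astrocytes.

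Astrocytes tile the gray matter with fine processes that wrap synapses and blood vessels. They take up glutamate and potassium released by active neurons, move water, share ions and metabolites through gap junctions, carry lipids and cholesterol to neurons, and store glycogen. In the hippocampus they make up one of the main glial classes beside oligodendrocytes and microglia, and they turn on intermediate filament and immune genes when tissue is injured.

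The libraries differed in depth. Passing barcodes numbered 90 in placebo mouse 3 and 253 to 405 in the other mice, and their UMIs summed to 267231 in placebo mouse 3 and to between 1124323 and 2150763 elsewhere. Summed over members, UMIs ranged from 48083 in placebo mouse 3 to 261291 in EPO mouse 6. In total, 67 barcode sequences occurred in more than 1 library, of which 53 were shared by placebo mouse 1 and EPO mouse 4. Of the members, 2 from placebo mouse 1 and 1 from EPO mouse 4 carried such a sequence, and no sequence was a member in 2 libraries.

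The rule collected barcodes of 2 kinds. The share of a barcode's UMIs that fell in the 8 admitting genes had a median of 2.12% over all members, but it ran from 0.0139% to 4.00%, with few values between 0.5 and 1%. A limit of 1%, set after the data were seen, left 220 members at or above it, called high-marker, with a median of 2.28%. The 36 members under it, called low-marker, had a median of 0.119%. Other barcodes had a median of 0.0%, and 5 of the 1376 lay over 1%. Near the limit, 7 members lay between 0.5 and 1%, and 23 between 1 and 1.5%.

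The low-marker members were deeper and carried neuronal RNA. Their median was 4579 UMIs and 1937.5 genes, against 1711.5 UMIs and 785.5 genes in the high-marker members and 2855 UMIs in other barcodes. UMIs of 8 glutamatergic marker genes, Meg3 and Snap25 among them, made up a median 2.16% of a low-marker barcode, 0.106% of a high-marker barcode and more in an other barcode than in a high-marker one. In the plot of passing barcodes by astrocyte and neuron gene content, most low-marker members lie among the neuron-like other barcodes and the high-marker members stand apart.

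**Figure D1:**
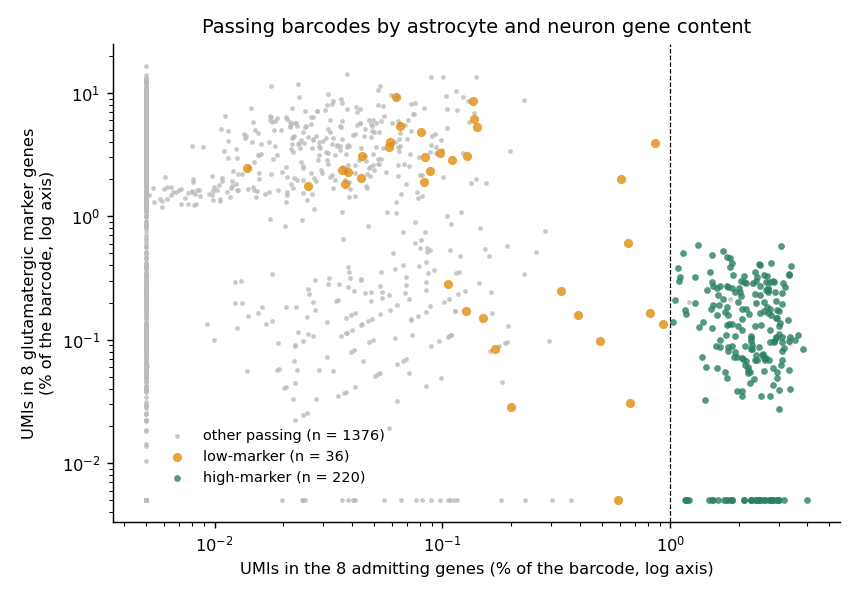
Percentage of a barcode's UMIs in the 8 admitting astrocyte genes (x, log axis) against the percentage in 8 glutamatergic marker genes (y, log axis) for the 1632 passing barcodes, with values under 0.005% drawn at 0.005% and the 1% limit as a dashed line. The 220 high-marker members (green) lie apart from the 1376 other barcodes (gray), while the 36 low-marker members (orange) lie mostly among them.

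By number the low-marker members are few, by RNA they are not. They held 302991 of the 746551 member UMIs, or 40.6%. Per mouse, low-marker barcodes gave 20.5, 12.2 and 37.4% of the member UMIs in placebo mice 1, 3 and 5 and 44.1, 12.9 and 64.9% in EPO mice 2, 4 and 6. EPO mice 2 and 6 were thus highest and EPO mouse 4 was near the lowest value, and the groups overlapped. Of the 10 deepest members, 9 were low-marker barcodes of EPO mice with glutamatergic marker UMIs of at least 1.77%, and 8 of these came from EPO mouse 6.

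Single barcodes of other kinds were also admitted. A placebo mouse 5 barcode with 29026 UMIs, 7 of the 8 admitting genes and 0.665% of its UMIs in them held all 128 UMIs of Ccdc153 and all 67 of Tmem212 that members had, and 29 of the 30 of Foxj1, the master regulator of motile cilia. These genes mark ependymal cells, which line the ventricles, and this barcode gave 33.0% of that mouse's member UMIs. A barcode of EPO mouse 4 with 9417 UMIs held 645 of the 676 member UMIs of Ptgds and 0.658% of its UMIs in a list of 3 mural cell markers. Of that list Vtn had 59 of its 66 member UMIs in 1 barcode, so the mural sum rested mainly on a single gene and does not name a cell type. A barcode of EPO mouse 2 with 6980 UMIs had 5.46% of its UMIs in mature oligodendrocyte markers. Doublet calling was not run, so that barcodes with 2 cells cannot be told from single cells here.

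At the edges of the rule, 22 of the 23 members with exactly 3 admitting genes were low-marker, and their median in the 8 genes was 0.0836%, close to the 0.0638% of the 59 barcodes with 2 admitting genes that were left out. Members with all 8 admitting genes numbered 91, and none of them was low-marker. Of the 57 members with 1 excluding gene, 40 were high-marker. Of 54 barcodes left out for 2 or more excluding genes although they had 3 or more admitting genes, 4 were over 1%.

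Among the admitting genes, Aldoc, the brain form of aldolase, and Slc1a3, the glutamate transporter GLAST, were found most often, in 100 and 99.1% of the high-marker members and in 15.7 and 13.7% of other barcodes. Gja1 and Gjb6, which encode the gap junction proteins connexin 43 and connexin 30, had a UMI in 224 and 152 of the 256 members. In the high-marker members, Aqp4, the water channel of astrocyte endfeet, had one in 81.4%, and Id4, a repressor of basic helix-loop-helix factors, in 75.9%. In low-marker members the 8 genes ranged from 19.4% (Id4) to 88.9% (Aldoc). Of the excluding genes, Slc17a7, the vesicular glutamate transporter of glutamatergic neurons, was the most frequent over all members, with a UMI in 18 of 256, and it was found in 36.1% of low-marker and 2.27% of high-marker members, and Cldn5, a tight junction gene of endothelial cells, was not seen in members. A count of 0 of 256 members allows a share of up to 1.17% of members with a UMI, which covers counting error only and does not limit the share of cells that express a gene.

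Markers of other cell types were summed as well. These lists hold the 10 excluding genes of the rule, so members were low in those by selection, and the sums are a description. In high-marker members, glutamatergic markers summed to 800 to 2369 CPM in placebo mice, where CPM scales the summed UMIs of a mouse's barcodes to 1000000, and to 887 to 1940 CPM after EPO, against 19792 to 25407 CPM in other barcodes. Mature oligodendrocyte markers summed to 509 to 2716 and 309 to 1770 CPM, against at least 13318 CPM in other barcodes. GABAergic markers had 5 UMIs and oligodendrocyte precursor markers 8 UMIs in all 220 barcodes, with Pvalb and Vip, and Pdgfra, C1ql1 and Neu4, at 0. Microglial markers had 51 UMIs, endothelial markers 13, mural markers 30 and ependymal markers 30. Not every marker was lower than in other barcodes: Rarres2 of the ependymal list was at 68.3 ± 42.0 CPM against 10.6 CPM, and Pdgfrb of the mural list at 37.7 ± 34.2 CPM against 12.2 CPM (SD, n = 6 mice). In low-marker members the glutamatergic markers summed to between 1044 CPM in EPO mouse 4 and 46075 CPM in placebo mouse 3.

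Transporters for glutamate and GABA were among the most abundant genes of high-marker astrocytes. All levels that follow are CPM, as mean ± SD over the 6 mice (n = 6), and since Drop-seq counts the 3′ end of a molecule once, a level is not divided by transcript length. Slc1a2, the glutamate transporter GLT-1, reached 11609 ± 1621 CPM, 46.9 times its level of 247 CPM in other barcodes. Slc1a3 stood at 6111 ± 1026 CPM, and Glul, the glutamine synthetase that turns the glutamate taken up into glutamine, at 3498 ± 797 CPM. Slc6a11, the GABA transporter GAT-3, was lower, at 297 ± 80.0 CPM. All 8 uptake genes were higher in high-marker members than in other barcodes in each of the 6 mice.

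Channels and ion carriers were likewise higher than in other barcodes, all 11 of the list in each of the 6 mice. Slc4a4, a sodium bicarbonate cotransporter, stood at 2600 ± 263 CPM. Aqp4 was at 1453 ± 264 CPM. Kcnj10, which encodes the potassium channel Kir4.1, was at 301 ± 60.1 CPM, 4.34 times its level in other barcodes, the lowest ratio in this list of 11. Gja1 exceeded Gjb6, with 2853 ± 578 against 814 ± 284 CPM, and Gjb2, connexin 26, had 6 UMIs in all high-marker members. The plot of levels in astrocytes and in other barcodes shows these genes mouse by mouse.

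**Figure D2:**
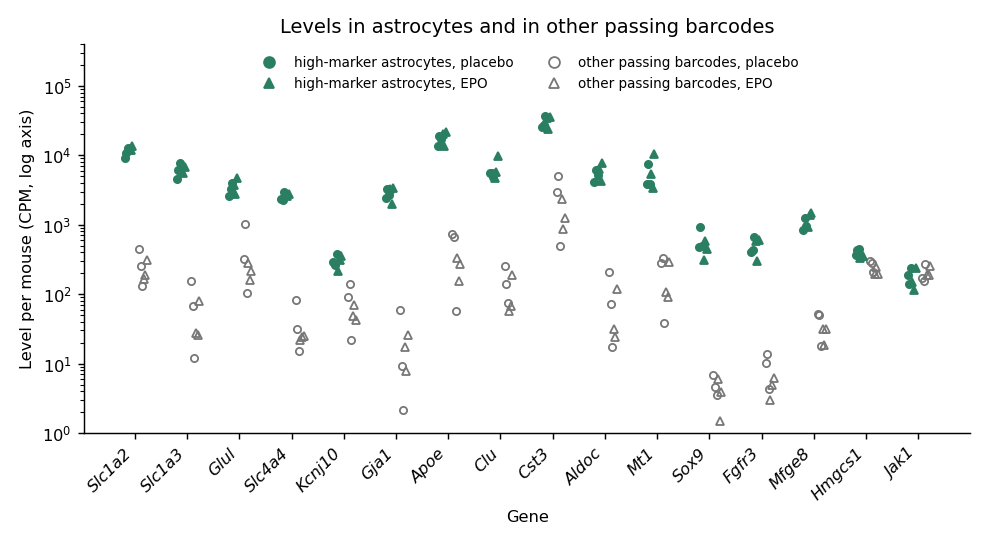
Level of 16 genes in each of the 6 mice, in CPM on a log axis, in the 220 high-marker astrocytes (filled green) and in the 1376 other passing barcodes (open gray), with circles for placebo and triangles for EPO mice. From Slc1a2 to Mfge8 the filled symbols lie above the open ones in every mouse, while for Jak1 they overlap.

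Lipid carriers and secreted proteins were among the most abundant genes, behind the noncoding RNAs mt-Rnr2 and Malat1. Cst3, the secreted protease inhibitor cystatin C, reached 30433 ± 5470 CPM and Apoe, the main lipid carrier of the brain, 17575 ± 3515 CPM, against 2150 and 371 CPM in other barcodes. Sparcl1, a secreted matrix protein that promotes synapse formation, stood at 11466 ± 1468 CPM and Clu, the chaperone and lipid carrier clusterin, at 6053 ± 1936 CPM. Over all members, the genes with the highest CPM included mt-Rnr2, Malat1, Cst3, Apoe, Sparcl1, Slc1a2, Meg3, mt-Rnr1 and Slc1a3. Of these Meg3, a noncoding RNA abundant in neurons, was the single gene below its level in other barcodes, with 5872 ± 4034 CPM against 17251 CPM, and in high-marker members it was at 1137 ± 427 CPM.

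The genes with the highest ratio to other barcodes, among the 560 with at least 10 UMIs in the members of every mouse, were mostly of lower abundance. They were Atp13a4, Agt, Lcat, Sox9, Gja1, Id4, Gjb6, F3, Pla2g7, Fzd2, Aqp4, Hopx, Mlc1, Sdc4 and Slc1a3, with ratios from 115 to 67.7 over all members. Agt encodes angiotensinogen, Lcat the enzyme that esterifies cholesterol on Apoe particles, Sox9 a transcription factor of the astrocyte lineage, F3 tissue factor and Mlc1 a membrane protein of astrocyte endfeet. Among these 560 genes, 78 exceeded 10 times the level in other barcodes. Of the genes in the ranking, Gja1, Id4, Gjb6, Pla2g7, Aqp4 and Slc1a3 are admitting genes, so their ratios were partly set by the rule. Within the high-marker members the ratios of the ranked genes were larger still, for example 165 against 115 for Agt and 123 against 99.3 for Sox9. Gja1 had 141 against 96.4, but the 1% limit that defines these members was set on its UMIs too.

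Cholesterol synthesis genes separated from the lipid carriers. The 12 carriers and fatty acid genes had a median ratio of 33.6 to other barcodes, and the 12 cholesterol synthesis genes one of 2.64. Sc4mol, a sterol methyl oxidase, was at 744 ± 135 CPM and 9.01 times, while Hmgcs1, the enzyme of hydroxymethylglutaryl-CoA synthesis, was at 381 ± 47.9 CPM and 1.60 times. The other barcodes include oligodendrocytes, so these ratios depend on the mix of cells compared. With each barcode thinned to 800 UMIs, Hmgcs1 was found in 24.5% of high-marker members and 35.0% of barcodes gated as oligodendrocytes. Sc4mol went the other way, with 35.9 and 13.2%. Glycolysis and glycogen genes also differed among themselves. Aldoc stood at 5638 ± 1376 CPM, 70.8 times other barcodes. It is an admitting gene, so its ratio was partly set by the rule and the 1% limit. Ppp1r3c, which targets a phosphatase to glycogen and is not in the rule, was 74.1 times. The median of the 17 measured genes was 1.07, and Aldoa, Tpi1 and Pkm were under the level of other barcodes with 0.830, 0.726 and 0.641 times.

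All 3 metallothioneins, small metal-binding proteins, were higher in astrocytes than in other barcodes in each of the 6 mice. Mt1 had 3913, 7602 and 3890 CPM in high-marker members of placebo mice 1, 3 and 5, against 5432, 3322 and 10548 CPM after EPO in mice 2, 4 and 6. Mt2 had 2226, 2842 and 2363 CPM and 2743, 2153 and 5034 CPM. For both genes EPO mouse 6 was the highest and EPO mouse 4 the lowest, so that the EPO mice enclosed all placebo mice.

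Transcription factors and receptors were less abundant than the transporters. Id4, Sox2, Id2, Id3 and Sox9 lay between 1017 and 540 CPM, and 14 of the 16 listed factors were higher than in other barcodes in each mouse. Of the receptors, Ntrk2, which binds brain-derived neurotrophic factor, was at 1478 ± 294 CPM, S1pr1, a sphingosine-1-phosphate receptor, at 1156 ± 194 CPM, Ntsr2, a neurotensin receptor, at 952 ± 269 CPM and Fgfr3 at 497 ± 141 CPM. Grm5, a metabotropic glutamate receptor, was the exception, with 47.4 CPM against 481 CPM in other barcodes. Gfap, the astrocyte intermediate filament, stood at 258 ± 60.9 CPM and had a UMI in 73 of the 220 high-marker members. Mfge8 was higher, with 1134 ± 257 CPM. Of 25 measured genes linked to reactive astrocytes, 11 had no UMI in high-marker members, S1pr3 and Serping1 among them, and 6 had 10 UMIs or more.

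The receptor for the injected hormone was close to undetected. Epor had 2 UMIs in all members, both in low-marker barcodes, and 7 in other barcodes. In high-marker members it was at 0, which allows up to 6.76 CPM over their UMIs. Jak1 and Jak2, kinases of the cytokine receptors, were at 179 ± 52.3 and 42.3 ± 28.9 CPM, near the levels in other barcodes of 206 and 45.2 CPM. Stat5a and Socs2, a signal carrier and a feedback target of that pathway, had 1 UMI each in high-marker members. At this depth Epor was not detectable in high-marker astrocytes, which does not show that it was absent.

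To compare how often a gene was seen at equal depth, each barcode was thinned to 800 UMIs. Slc1a2 was then found in 99.5% of high-marker members, in 36.1% of low-marker members, in 11.4% of 220 barcodes gated as oligodendrocytes and in 15.5% of 406 gated as glutamatergic neurons, classes expected to hold little of it. Gja1 had 84.1, 11.1, 0.909 and 0.0%. Mt1 had 92.7, 22.2, 19.5 and 4.68%. Snap25, a neuronal synaptic vesicle fusion gene, went the other way, with 8.18, 44.4, 16.4 and 57.1%. Before thinning, the median depths of these 4 sets were 1711.5, 4579, 5332 and 5975.5 UMIs. For Slc1a2, Mt1 and Snap25, low-marker members thus lay between the high-marker members and the neurons. Gja1 is an admitting gene, so its order was partly set by the rule and the 1% limit. Each low-marker value is an average over barcodes of several kinds.

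Among the high-marker members themselves, variance was compared with the mean, which counting alone would equal. Of 1140 genes with a mean of at least 0.1 UMI per barcode after thinning to 800 UMIs, 13 had a variance of more than 2 times their mean. The mitochondrial ribosomal RNA mt-Rnr2, Malat1, Cst3 and mt-Rnr1 led, with ratios of variance to mean of 39.1, 14.4, 6.32 and 4.74. Apoe followed with 2.93, Mt1 with 2.79, Clu with 2.50 and Slc1a2 with 2.16, while the median gene stood at 1.16, above that value too. How many genes pass 2 depends on depth. Differences between mice are contained in these ratios.

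Members had fewer UMIs and a higher mitochondrial share than other barcodes, by little in some mice, and the rule itself used detected genes and mitochondrial share. Median UMIs per member were lower in 6 of 6 mice, 1306 to 2292.5 against 1973 to 3381, with 1841 against 1973 in placebo mouse 3. The median mitochondrial share of members was higher in 6 of 6 mice, from 4.65 against 4.59% in EPO mouse 6 to 20.9 against 18.6% in EPO mouse 2.

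The share of astrocytes did not differ detectably between EPO and placebo mice. Members made up 16.0, 23.3 and 11.9% of the passing barcodes in placebo mice 1, 3 and 5 and 16.6, 12.3 and 21.0% in EPO mice 2, 4 and 6. The groups overlapped, with placebo mice both lowest and highest. Means were 17.1 ± 5.79% and 16.7 ± 4.34% (SD, n = 3 each), a difference of -0.422 percentage points with p = 1 in a two-sided exact permutation test, whose smallest p with 3 mice against 3 is 0.1. High-marker members alone made up 13.8, 21.1 and 11.3% against 13.4, 11.4 and 16.2%, a difference of -1.74 points (exact permutation p = 0.7). Without the barcode sequences found in more than 1 library, the difference was -0.864 points (exact permutation p = 0.8).

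**Figure D3:**
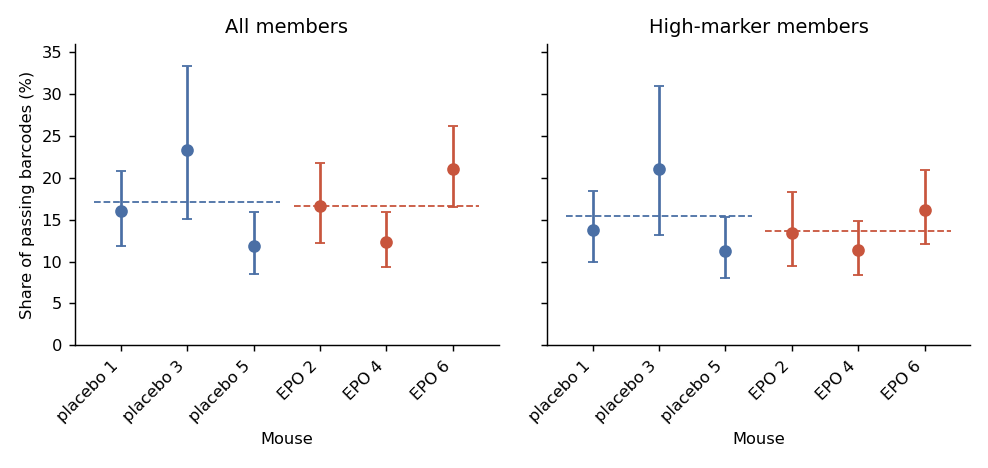
Share of passing barcodes that are members (left) and high-marker members (right) in each mouse, in percent, with exact 95% binomial intervals, placebo in blue and EPO in red, and group means as dashed lines. Placebo mouse 3 has the widest interval, and the values of both groups overlap in both panels.

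With a counting interval of 15.1 to 33.4%, placebo mouse 3 was the least certain. Within mice of D number 1 the difference was -3.07 points and within D number 2 it was 4.78 points, in opposite directions. After all barcodes were thinned to 800 UMIs and the rule applied again, the shares were 14.2, 22.7 and 11.6% and 14.2, 11.4 and 18.0%, a difference of -1.63 points (exact permutation p = 0.6). Median UMIs, genes and mitochondrial share per member also overlapped between the groups, with differences of 125 UMIs, 55.8 genes and -0.633 points (exact permutation p = 0.8, 0.8 and 1, adjusted p = 1 each over 3 readouts).

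No gene passed the test between EPO and placebo in astrocytes. UMIs were summed per mouse over all 256 members and tested by edgeR's quasi-likelihood test with Benjamini-Hochberg adjustment at 5%. Genes were tested if they passed a filter on low counts in as many mice as the smaller group held. A gene high in only the EPO or only the placebo mice could thus be tested. Of 1820 genes tested, 0 were called (0.0%) and 79 had an unadjusted p under 0.05, which is 4.34%, with 56 higher (3.08%) and 23 lower (1.26%) after EPO. In the 220 high-marker members, 0 of 1185 genes were called (0.0%) and 21 had an unadjusted p under 0.05, or 1.77%, with 9 higher (0.759%) and 12 lower (1.01%). In other barcodes 0 of 10182 genes were called and 127 had such a p, or 1.25%. limma and DESeq2 called 0 as well, with 67 and 50 genes at an unadjusted p under 0.05.

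The genes with the smallest p in all members on the upper side included 2 neuronal genes. Nefl, which encodes the neurofilament light chain (chromosome 14 from 68083863 to 68089095, mm10), had 114, 41.6 and 45.5 CPM in placebo mice 1, 3 and 5, against 616, 81.1 and 876 CPM after EPO in mice 2, 4 and 6. EPO mice 2 and 6 were high and EPO mouse 4 lay among the placebo mice. The fitted log2 fold change was 2.78 ± 0.741 (SE), with an adjusted p of 0.986 by edgeR. Low-marker barcodes held 93.2% of the Nefl UMIs of members. In high-marker members its values were 95.7, 47.4 and 18.2 CPM and 0, 82.8 and 43.6 CPM, and it was too low there to be tested.

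Chgb, the secretory granule protein chromogranin B of neurons and endocrine cells, had the same form, with 171, 187 and 34.1 CPM and 1082, 99.1 and 1558 CPM. Low-marker barcodes held 93.2% of its UMIs too. Its log2 fold change was 2.75 ± 0.816 and its adjusted p 0.986. Fgfr1op2, the nonmuscle myosin gene Myh10 and the helicase gene Dhx9 completed the 5 genes, with log2 fold changes of 1.66, 1.69 and 1.60 and with 69.3, 70.4 and 61.9% of their UMIs in low-marker barcodes. Dhx9 had 66.6, 41.6 and 45.5 CPM in placebo mice against 180, 99.1 and 218 CPM after EPO. It could thus pass the filter on low counts through the EPO mice alone. Myh10 had 105, 20.8 and 79.6 CPM and 293, 162 and 291 CPM in all members. In high-marker members Myh10 had 6, 1 and 1 UMIs in placebo mice against 14, 13 and 10 after EPO, and was too low there to be tested. The groups did not overlap in either set. In all members, groups did not overlap for 140 of the 1820 genes tested, or 7.69%, with 4.34% higher and 3.35% lower after EPO.

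On the lower side the first gene was Anxa5, annexin A5 (chromosome 3 from 36448923 to 36475894, mm10), which binds phosphatidylserine on membranes. It had 85.6, 291 and 944 CPM in placebo mice 1, 3 and 5, against 82.6, 108 and 103 CPM after EPO. Placebo mouse 5 was highest and placebo mouse 3 next, while placebo mouse 1 lay among the EPO mice, and 72 of the 156 Anxa5 UMIs of members came from its barcode with ependymal genes. The log2 fold change was -2.15 ± 0.667 over all members and -0.48 ± 0.443 in high-marker members. Cd9, a membrane tetraspanin, followed with 247, 229 and 523 CPM and 180, 72.1 and 103 CPM, and 36 of its 142 member UMIs came from that same barcode. In high-marker members its groups overlapped. Eif2s3y, a translation initiation factor gene of the Y chromosome, had a log2 fold change of -1.39 ± 0.447 and rested on 76 UMIs in all members together. It had 162, 250 and 125 CPM in placebo mice against 60.1, 54.1 and 84.2 CPM after EPO. It could thus pass the filter on low counts through the placebo mice alone.

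**Figure D4:**
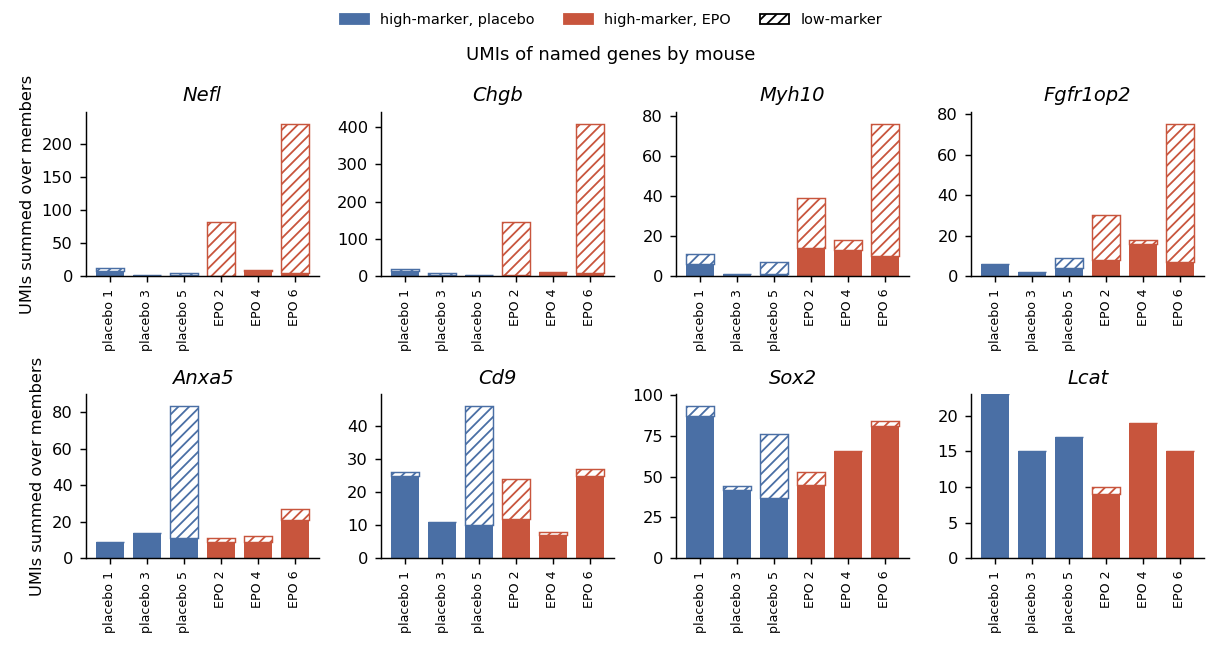
UMIs of 8 named genes summed over the members of each mouse, with filled bars for high-marker barcodes (placebo in blue, EPO in red) and hatched bars for low-marker barcodes. The Nefl and Chgb UMIs of EPO mice 2 and 6 and the Anxa5 UMIs of placebo mouse 5 are mostly hatched, and those of Lcat are almost all filled.

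Sox2, a transcription factor of neural stem cells and astrocytes (chromosome 3 from 34650405 to 34652461, mm10), had 884, 915 and 864 CPM in placebo members, against 398, 595 and 321 CPM after EPO. Here the groups did not overlap, with a log2 fold change of -1.03 ± 0.357 and an adjusted p of 0.986. In high-marker members Sox2 had 1041, 995 and 673 CPM and 605, 683 and 883 CPM, which did overlap, and the change was -0.39 ± 0.261. Low-marker barcodes gave 64.9 and 44.1% of the member UMIs in EPO mice 6 and 2, the lowest in Sox2, but 12.9% in EPO mouse 4 with 595 CPM and 37.4% in placebo mouse 5 with 864 CPM, and their part in the difference was not tested.

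Leaving out EPO mouse 4, whose low-marker share of UMIs was 12.9%, gave calls. Then 64 genes were called higher (2.83% of 2263 tested) and 5 lower (0.221%) by edgeR at an adjusted p under 0.05. With this mouse out, the filter on low counts needed fewer mice, so genes high in EPO mice 2 and 6 alone could be tested. Neurod6 and Egr1 were called here but were too low to be tested with all mice. Nefl, Chgb, Snrpn, Basp1 and Snap25, all expressed in neurons, led the higher genes. The 64 higher genes had a median of 89.8% of their UMIs in low-marker barcodes, against 46.6% over all genes tested and 10.4% in the lower genes. The part of low-marker barcodes in these calls was not tested. The 5 lower genes were Sox9, Myo10, Lcat, Ptma and Sox2. In the high-marker members, leaving out EPO mouse 4 gave 0 calls and 62 genes at an unadjusted p under 0.05.

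High-marker members gave other leading genes. Lcat (chromosome 8 from 105939551 to 105943382, mm10) had 275, 355 and 309 CPM in placebo mice, against 121, 197 and 163 CPM after EPO, each EPO value lying under each placebo value. It rested on 23, 15 and 17 UMIs against 9, 19 and 15 UMIs, with a log2 fold change of -0.97 ± 0.336 and an adjusted p of 0.998 by edgeR. Lrpap1, a chaperone of lipoprotein receptors, Zc3h7a, Ctcf and Eif3a were the next on this side, with log2 fold changes of -1.04, -1.25, -1.32 and -0.82. Groups in high-marker members did not overlap for 90 of 1185 genes, or 7.59%, with 4.81% higher and 2.78% lower after EPO.

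On the upper side of the high-marker members were Magt1, Pkm, Aldh6a1, Ylpm1 and Cwc15, with log2 fold changes of 1.26, 1.00, 1.12, 1.45 and 0.88. Magt1 had 5, 5 and 3 UMIs in placebo mice against 13, 15 and 21 after EPO. It could thus pass the filter on low counts through the EPO mice alone. Pkm, the pyruvate kinase of glycolysis, had 144, 71.1 and 127 CPM in placebo mice, against 229, 207 and 327 CPM after EPO. In all members it had 152, 125 and 125 CPM against 323, 180 and 394 CPM. The groups did not overlap in either set, the former with 12, 3 and 7 UMIs against 17, 20 and 30 UMIs, and adjusted p was 0.998 and 0.986. Gpi1, the glycolytic glucose-6-phosphate isomerase, had 83.8, 142 and 90.9 CPM and 229, 145 and 272 CPM in high-marker members, with a log2 fold change of 1.00 ± 0.414 (adjusted p = 0.998). Summed glutamatergic markers overlapped between the groups in the same barcodes, and they came to 2369, 1350 and 800 CPM and 887, 1677 and 1940 CPM. A part of neuronal RNA in the Pkm and Gpi1 values was not tested. The other 6 glycolytic genes tested there had log2 fold changes from -0.32 to 0.19.

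Across the astrocyte gene lists, the direction of the list medians differed between all members and the high-marker members. In all members each of the 8 glutamate and GABA uptake genes was lower after EPO, with a median log2 fold change of -0.29, while in high-marker members 5 of 8 were higher and the median was 0.15. Medians over all genes tested were 0.02 and -0.01. The 10 tested water, potassium and bicarbonate genes went from -0.25 to 0.09, the 12 lipid genes from -0.22 to 0.13, and the 3 metallothioneins from -0.39 to 0.25. For Slc1a2 this was -0.13 ± 0.433 in members and 0.16 ± 0.206 in high-marker members, and for Apoe -0.28 ± 0.441 and 0.14 ± 0.225. No gene of any list passed the test in either set, so that none of these medians stands for called genes.

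**Figure D5:**
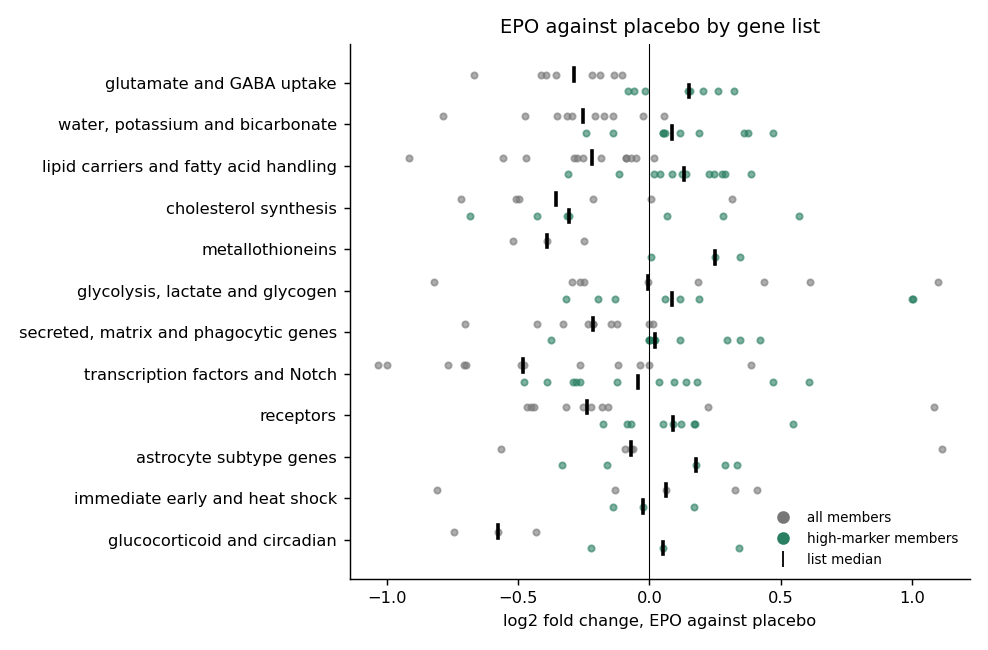
Log2 fold change of EPO against placebo for each tested gene of 12 gene lists, in all 256 members (gray) and in the 220 high-marker members (green), with the list median as a black bar. The medians of the uptake, channel, lipid and metallothionein lists lie under 0 in all members and over 0 in the high-marker members. The uptake, channel and lipid lists hold admitting genes, on whose UMIs the high-marker members were chosen.

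Transcription factors were the list with the lowest median among those with 6 or more tested genes, -0.48 over 12 tested genes in all members, with Sox2 and Zbtb20 at an unadjusted p under 0.05 (1.26% of all genes tested were so on the lower side) and 11 of 12 lower. In high-marker members the median was -0.04 and 6 of 12 were lower. Cholesterol synthesis kept its sign, with medians of -0.36 over 6 genes and -0.31 over 7 genes, of which 4 were lower, and groups did not overlap for 2 genes in each direction, where over all genes tested in high-marker members 4.81% lay apart as higher and 2.78% as lower. Of 9 tested receptors 6 were higher in high-marker members, with a median of 0.09. Of the hypoxia list Vegfa and P4ha1 could be tested, with -0.09 and -0.18 in high-marker members. Of the reactive genes Gfap alone was abundant enough, with -0.07 ± 0.462 in all members and 0.34 ± 0.321 in high-marker members. Glutamatergic marker genes, listed to check the label, had a median of 1.65 over 5 tested genes in all members and -0.06 over 2 in high-marker members.

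Finally, the EPO effect in astrocytes was tested against that in other barcodes of the same mice, with the mouse as a block. Of 1820 genes, 0 were called (0.0%) and 32 had an unadjusted p under 0.05, or 1.76%, and in high-marker members 0 of 1185 were called and 28 had such a p, or 2.36%. Lxn, which encodes the carboxypeptidase inhibitor latexin (chromosome 3 from 67457998 to 67463926, mm10), had the smallest p. In astrocytes it had 181, 333 and 250 CPM without EPO, against 158, 144 and 145 CPM with it. Other barcodes had 31.2, 41.1 and 32.3 CPM against 65.6, 65.2 and 125 CPM. It was lower in the former and higher in the latter in all 3 EPO mice, with a difference of -2.01 ± 0.452 on the log2 scale and an adjusted p of 0.999 by edgeR. High-marker Lxn levels overlapped, with 215, 379 and 364 CPM and 242, 166 and 349 CPM, and the difference to other barcodes was -1.69 ± 0.428. Eif2s3y, D8Ertd738e, Cep290 and Prpf38b followed on this side, with differences from -1.45 to -0.86, and Fgfr1op2, Myh10, Hnrnpul2, 5830428H23Rik and Dhx9 on the other, with differences from 1.30 to 1.67. Of the latter 5 genes, 48.6 to 70.4% of the member UMIs lay in low-marker barcodes, which held 40.6% of all member UMIs. On the lower side this percentage ran from 9.09% for Lxn to 62.5% for Cep290, so the 2 sides overlapped. Hnrnpul2, 5830428H23Rik and Dhx9 could pass the filter on low counts through the EPO mice alone, and Eif2s3y through the placebo mice alone.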

How the data were processed

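Raw UMI counts, not normalized, were deposited by the authors in a single table for 20234 genes and 6000 barcodes, 1000 per mouse, and 25311000 missing entries were set to 0. The submitters' processing notes name bcl2fastq 2.15, STAR 2.4.0 and mm10. Members and gene lists were chosen with earlier results of these data known, and the 1% limit, the gate with 6 admitting genes and the settings that leave out single barcodes or shared sequences were chosen after seeing the data. Counts were summed per mouse and tested in edgeR 4.0.16 (R 4.3.3) with trimmed mean scaling, a minimum count of 10 and a minimum total of 15, after a check on simulated counts. Alternatives were DESeq2 1.42.0, limma 3.58.1 with a prior count of 2, other scaling, no filter, other gates and leaving out each mouse. Named genes were those of the rule, the 5 with the smallest p per direction for each test, the 10 highest in CPM, the 15 highest in ratio, and up to 4 per list by CPM or p. The same was done in high-marker members, and further list genes were named after their values were seen. Shares have exact Clopper-Pearson 95% intervals, and intervals and limits cover counting error only. The replicate was the mouse, with 3 per group. Doublets were not called. Some listed genes are not reported here. Coordinates come from GENCODE by gene symbol, on the mm10 build, with 38 of 39 symbols matched. Of 264 listed genes, 262 were in the table. Counting is not stated to use strand, so overlapping genes cannot be told apart.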

Additional observations from a re-analysis of the deposited data

How the results depend on the processing

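No paired analysis was possible because no mouse number occurs in both groups. The D number was used as a replicate block instead, with 0 calls in either direction among 1820 genes (59 at an unadjusted p under 0.05) and an astrocyte share 0.856 points higher after EPO. Deviations from the group means over genes were correlated between each placebo and each EPO mouse. Pairs with the same D number ranged from -0.0513 to 0.0855, and pairs with different D numbers from -0.246 to 0.239. The share difference of -0.422 points also turned positive with 2 admitting genes (1.17), with no excluding gene (0.441), and without placebo mouse 3 (2.70) or EPO mouse 4 (1.74), and ranged from -3.01 to 2.70 over mice left out, so its direction changed with these settings. Gene calls between EPO and placebo stayed at 0 except in these settings. Without each mouse in turn, the filter on low counts needed fewer mice. Calls then ranged from 0 to 64 higher and from 0 to 5 lower, all of them without EPO mouse 4. Without the filter on low counts, 43 genes were called higher and 63 lower of 14803, and 67 of these 106 had more than 50% of their UMIs in 1 barcode, as for Ccdc153, Tmem212 and Ptgds above. In high-marker members without that filter, 1 gene was lower and 0 higher. It was Hbb-bs, a hemoglobin gene of red blood cells, with 62, 6 and 0 UMIs in placebo and 6, 7 and 7 UMIs in EPO mice. For the difference to other barcodes, no filter gave 1 higher gene, Igf2, and 2 lower genes, Spef2 and Tm4sf1, with at least 34 of their UMIs in 1 barcode each. These 4 were named after their values were seen. For 34 differences of named genes, 624 values came from other settings, of which 587 kept direction and side of the threshold, 7 passed the threshold and 30 changed direction. Nefl, Chgb and Gm973 went to -0.33, -0.30 and 0.18 in high-marker members without the filter, and Gm973 to 0.038 with it. Aldh6a1 turned with 2 admitting genes (-0.021), without placebo mouse 1 (-0.021) and without EPO mouse 4 (-0.098), with a range of -0.098 to 0.55 over mice left out. Slc1a2, Apoe and Mt1 turned positive with 4 admitting genes (0.087, 0.0047 and 0.031), no excluding gene (0.082, 0.075 and 0.048), thinning (0.21, 0.079 and 0.33), 1% (0.16, 0.14 and 0.25), 6 admitting genes (0.30, 0.18 and 0.26), 1% without EPO mouse 4 (0.15, 0.29 and 0.54) and 1% without the filter (0.30, 0.30 and 0.43), Slc1a2 also without EPO mouse 6 (0.13, range -0.56 to 0.13 over mice left out) and Mt1 without placebo mouse 3 (0.012, range -0.66 to 0.012). Depth limits all of this: placebo mouse 3 has 21 members.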

Other observations

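The lower limit on detected genes cut through the astrocytes. A further 232 barcodes with at most 500 genes met every other part of the rule, with a median of 604 UMIs and 1.98% of their UMIs in the 8 admitting genes, and 209 of them were at or over 1%. They numbered 38, 20 and 77 in placebo mice 1, 3 and 5 and 34, 31 and 32 in EPO mice 2, 4 and 6. Placebo mouse 5 thus had the most of them, and the fewest astrocytes relative to its passing barcodes. With them, 82, 41 and 115 of 1000 barcodes in the placebo mice and 76, 81 and 93 in the EPO mice met the rule.

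Of the immediate early genes, Egr1 and Junb were nearly undetected in high-marker astrocytes. Egr1, which neurons switch on with activity, had 4 UMIs in the 220 high-marker members, at 7.26 ± 8.65 CPM (SD, n = 6), against 214 CPM in other barcodes and 274 CPM in low-marker members. Junb had 3 UMIs. Jun was closer, with 124 ± 46.6 CPM against 130 CPM. Neural stem cell genes were mixed: Hopx, found in both stem cells and astrocytes, stood at 264 ± 73.7 CPM, and the proliferation genes Mki67 and Top2a had no UMI in high-marker members.

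Tsc22d3, a gene induced by glucocorticoids, had 251, 403 and 309 CPM in high-marker members of placebo mice 1, 3 and 5, against 282, 124 and 632 CPM after EPO in mice 2, 4 and 6. As for Mt1 and Mt2, EPO mouse 6 was highest and EPO mouse 4 lowest.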
